A study of Mus musculus with 32 samples.

Results

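The unloaded control cells of a study of white adipocytes and cholesterol are described here: mouse primary white adipocytes that received a scrambled siRNA, a duplex made to match no transcript, and the control treatment. The 4 libraries were chosen by their labels alone and make up 1 of 8 groups, or 4 of 32 libraries. The other groups received siRNA against Nfe2l1, Atf3 or both, or were loaded for 6 h with 400 µM cholesterol carried by methyl-β-cyclodextrin, a sugar ring that delivers sterols to membranes. None of them was used. The study asked how Nfe2l1 and Atf3, both transcription factors, bear on cholesterol handling in these cells.

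The design text gives murine subcutaneous fat as the source of the cells, and the labels give the genotype as WT and a serum-containing DMEM F-12 medium. Each of the 4 cultures carried the scrambled siRNA, so levels in cells without any siRNA were not analysed here. Whether the cyclodextrin carrier was part of the control treatment is not given in the labels, nor are strain, age and sex of the animals or the time after differentiation. They call the libraries biological replicates without naming separate animals, so the spread between them may be partly technical. RNA was enriched for poly(A) tails, and the libraries therefore under-represent RNAs that lack a tail.

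White adipocytes store energy as triglyceride in a single large lipid droplet and release fatty acids from it when hormones ask for them. The nuclear receptor PPARγ, encoded by Pparg, and the bZIP factor C/EBPα switch on the genes for fatty acid uptake, triglyceride synthesis and droplet coating. Mature cells also secrete hormones such as adiponectin and leptin. In culture they arise from fibroblast-like precursors of the stromal fraction, and precursors that did not differentiate can remain in the dish.

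The 4 libraries held 24263362, 25956355, 26402159 and 25713324 gene counts. Levels compared between genes are in TPM: each count was divided by the gene length in the deposited table, and the quotients were scaled to the sum of 1000000 in each library. Levels of 1 gene are compared between libraries in CPM where that unit is given, and otherwise in TPM. CPM are counts per 1000000 of a library size adjusted by the TMM method, without the length. Values are mean ± SD of 4 libraries (SD, n = 4) unless each library is given, in the order 1 to 4. Orders of genes by TPM, and overlaps between them, are those on the deposited lengths. With transcript lengths of the GENCODE M21 annotation, 23 of 176 neighbouring pairs in family lists stood in reversed order. A gene was taken as detected with at least 10 counts in each library. Over all 4 libraries together, a count of 0 allows up to 0.0293 CPM, the worth of 3 counts. That limit, like the intervals below, covers counting error only.

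The labelled cell type was checked on 4 defining adipocyte genes. Adipoq, which encodes the hormone adiponectin, lay at 2377, 2328, 2306 and 2376 TPM. Plin1, which encodes the main coat protein of the adipocyte lipid droplet, lay at 1237, 1225, 1271 and 1250.2 TPM. Cidec, whose product fuses droplets into one large droplet, lay at 428, 397, 485 and 505 TPM. Each of these genes was high in every library, and the lowest of the 12 values was that of Cidec in library 2. Pparg lay at 279, 263, 272 and 269 TPM, a level that 12 of 1006 detected transcription factors exceeded. The median detected protein-coding gene had 19.8 TPM. These are bulk RNA values, in which fewer cells of a type and less RNA per cell cannot be told apart.

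The 2 genes that the study silenced elsewhere were both expressed. Nfe2l1, whose product raises proteasome genes when proteasomes are overloaded, lay at 308, 312, 318 and 315 TPM. Atf3, an early responder to stress signals, lay at 39.0, 46.0, 41.8 and 47.7 TPM. The libraries hardly differed in Nfe2l1, with a ratio of highest to lowest CPM of 1.02, against 1.21 for Atf3. In the deposited table Nfe2l1 lies at chr11:96708240-96720794 and Atf3 at chr1:190902493-190950236, both on the minus strand of GRCm39.

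Promoter windows of the 4 defining genes are shown because their transcripts identify these cells and because C/EBPα had the highest TPM of all transcription factors here. They come from RefSeq (GRCm38.p6, an older build than that of the counts) and run from 250 bases before to 50 bases after an annotated start, 5′ to 3′ along the gene. Capitals mark matches, on either strand, to the word CCAAT, to the C/EBP-type word TTNNGCAA, where N is any base, or to the word of the TATA box, which is TATAAA. A match on the other strand shows as the reverse complement, such as ATTGG for the first word. For Cidec and Pparg, which have 2 and 3 annotated starts in the table, the window with a C/EBP-type word is shown. The windows lie at chr16:23146286-23146585 (plus strand), chr7:79732727-79733026 (minus strand), chr6:113434715-113435014 (minus strand) and chr6:115421816-115422115 (plus strand). No matches to different words overlapped in them. Of the windows not shown, that of Cidec and the first of Pparg held none of the words, and the second of Pparg held 1 match to TATAAA and 1 to CCAAT.
Adipoq: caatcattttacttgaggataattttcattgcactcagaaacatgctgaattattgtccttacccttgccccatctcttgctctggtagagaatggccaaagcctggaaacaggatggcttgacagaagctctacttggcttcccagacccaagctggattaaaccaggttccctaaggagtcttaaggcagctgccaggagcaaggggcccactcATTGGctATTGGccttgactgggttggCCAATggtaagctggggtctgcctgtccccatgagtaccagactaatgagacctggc
Plin1: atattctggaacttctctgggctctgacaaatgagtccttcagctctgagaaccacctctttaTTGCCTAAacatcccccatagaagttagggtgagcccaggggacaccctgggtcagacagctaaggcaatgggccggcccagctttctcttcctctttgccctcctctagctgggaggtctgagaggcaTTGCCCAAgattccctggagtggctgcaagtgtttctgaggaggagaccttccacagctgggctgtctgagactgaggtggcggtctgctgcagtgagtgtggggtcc
Cidec: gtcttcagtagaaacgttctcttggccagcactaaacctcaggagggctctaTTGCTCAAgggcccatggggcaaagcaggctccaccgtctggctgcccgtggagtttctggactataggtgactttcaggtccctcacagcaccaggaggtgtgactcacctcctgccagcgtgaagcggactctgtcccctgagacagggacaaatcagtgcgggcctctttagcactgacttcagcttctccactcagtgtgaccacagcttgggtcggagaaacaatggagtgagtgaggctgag
Pparg: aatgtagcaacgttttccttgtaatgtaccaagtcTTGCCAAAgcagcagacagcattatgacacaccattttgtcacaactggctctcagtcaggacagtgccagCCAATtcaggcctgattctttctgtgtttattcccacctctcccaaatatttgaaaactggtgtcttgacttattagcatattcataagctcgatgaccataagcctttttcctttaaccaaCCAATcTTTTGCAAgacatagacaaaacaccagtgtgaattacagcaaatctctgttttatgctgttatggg

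Adipoq showed 3 matches to CCAAT and no other match. Plin1 showed 2 matches to the C/EBP-type word, Cidec 1 and Pparg 2, and Pparg also 2 to CCAAT. Of the 22 genes of the adipocyte marker list, 15 had windows in the table, and 4 of these (26.7%) held the C/EBP-type word in a window. Plin1, Cidec and Pparg, shown above, are among these 4, so the sequences shown and this share are not separate observations. The share was 10.0% among 10266 detected protein-coding genes and 12.2% among all 27025 genes with windows. It was 8.11% among 74 genes with windows out of the 100 nuclear protein-coding genes with the highest mean TPM. For CCAAT the shares of genes were 40% in the list, 42.9% among detected genes and 41.1% among all. For TATAAA they were 13.3%, 8.95% and 15.7% of genes. Among the 74 genes of highest TPM with windows, the shares were 48.6% for CCAAT and 21.6% for TATAAA. A match of letters is a description and not a binding site, and no test was made of these shares.

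Nearly all counts fell on protein-coding genes, 98.3 ± 0.15% in the 4 libraries, or 93.5 ± 0.341% of TPM. Long non-coding RNA genes took 0.543 ± 0.0425% of counts, and all pseudogene biotypes together 0.529 ± 0.0118%. Pseudogenes are short, and their share of TPM was 2.82 ± 0.0593%. Genes of the mitochondrial chromosome took 2.03 ± 0.0862% of counts and 7.02 ± 0.354% of TPM. Collagens took 5.44 ± 0.12% of counts and the 22 adipocyte markers 2.99 ± 0.0623%. Counts grow with transcript length, and in TPM the order was the reverse, with 25389 ± 724 TPM for collagens and 28737 ± 506 TPM for the adipocyte markers. Fatty acid synthesis genes took 3.41 ± 0.117% of counts.

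Ribosomal RNA differed between libraries, and nearly all of it came from Rn18s-rs5, an 18S ribosomal RNA gene whose product carries no poly(A) tail. Its biotype took 0.376% of counts in library 1 (95% Wilson interval 0.374 to 0.379) and 0.398% in library 2 (0.395 to 0.4). It took 0.254% in library 3 (0.252 to 0.255) and 0.129% in library 4 (0.128 to 0.13). Library 4 had the lowest share, and the ratio of highest to lowest CPM of Rn18s-rs5 was 3.11. These intervals count reads as if each were a separate molecule.

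Of 56748 genes in the table, 14811 were detected, among them 12992 of 21970 protein-coding genes, 931 of 11288 lncRNA genes and 715 pseudogenes. A further 29159 genes had no count in any library, 5140 of them protein-coding. Protein-coding genes spanned a wide range: 12412 had a mean of at least 1 TPM, 8648 at least 10, 1657 at least 100, 110 at least 1000 and 12 at least 5000 TPM. The counts were spread over many genes. In a library, 737 ± 9.95 genes held 50% of counts and 5574 ± 20.2 genes held 90%. The 10 genes with most counts took 8.44 ± 0.0856% and the 100 with most 25.7 ± 0.269%.

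The nuclear protein-coding gene with the highest TPM on the deposited lengths was Scd1, which encodes stearoyl-CoA desaturase 1, the enzyme that makes oleic from stearic acid. Scd1 lay at 17046, 16931, 17273 and 16478 TPM, above every other nuclear protein-coding gene in each library on these lengths. With GENCODE M21 lengths, Scd1 would average 12262 TPM and lie below Fabp4, the adipocyte fatty acid carrier, at 14629.7 ± 496 TPM. On the deposited lengths B2m, the light chain of class I antigen-presenting molecules, came after Scd1 at 9545 ± 364 TPM. Bsg, a chaperone of lactate transporters, and Hp, the haemoglobin-binding acute-phase protein haptoglobin, lay at 6455 ± 228 and 6263 ± 364 TPM. The 25 genes with the highest mean TPM fell into few kinds. Adipocyte products among them were Scd1, Hp, Car3, Fabp4, Cfd and Lpl. Matrix proteins and their chaperone were Sparc, Col1a1, Serpinh1, Col6a1, Col4a1 and Col3a1. Antigen presentation was represented by B2m, H2-K1 and H2-D1, and the rest included the elongation factor Eef1a1, the glycolytic enzyme Aldoa, the ferritin subunit Ftl1 and the lysosomal protein Psap.

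**Figure D1:**
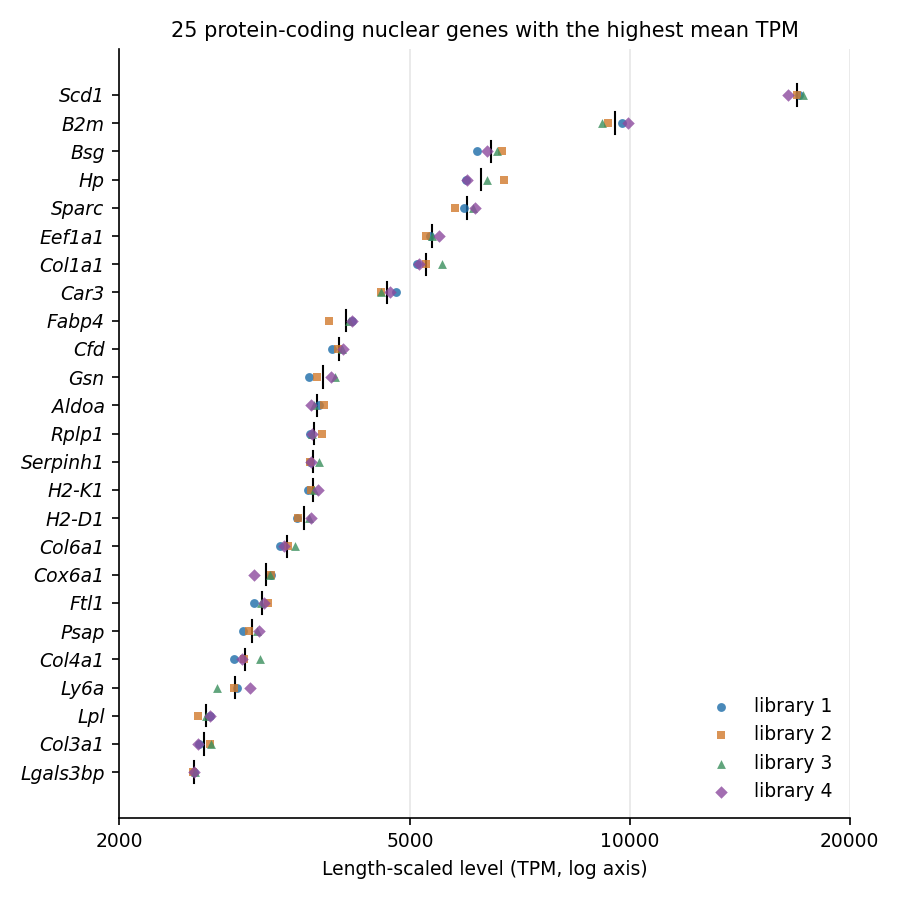
Level of the 25 nuclear protein-coding genes with the highest mean TPM, 1 row per gene, on a log axis. Points are the 4 libraries and the black bar is their mean. The points of a gene lie close together, and Scd1 stands apart from the others with a mean of 16932 TPM on the deposited lengths.

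Per length, short features can rank far above their share of reads. The non-coding genes with the highest mean TPM were mt-Tp (9799 ± 1061 TPM), mt-Rnr1 (5890.0 ± 247 TPM), Rn18s-rs5 (5538 ± 2364 TPM), mt-Rnr2 (2058 ± 152 TPM) and the pseudogene Mpc1-ps (1176 ± 28.1 TPM). The first of them, a mitochondrial transfer RNA gene of 67 bases, is shorter than a usual sequencing fragment. It drew 18906 counts over the 4 libraries, against 162230 for mt-Rnr1.

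The adipocyte marker list was detected in full. Its 22 genes summed to 28976, 27980.1, 28961 and 29031 TPM, and 21 of them averaged at least 100 TPM. The median member lay at 831 TPM, against 19.8 TPM for the median detected protein-coding gene. Car3, carbonic anhydrase 3 of adipocytes and muscle, led the list at 4654 ± 109 TPM. Cfd, the serine protease adipsin, lay at 3996 ± 62.6 TPM and Lpl, which frees fatty acids from circulating lipoproteins, at 2629.8 ± 48.8 TPM. Cd36, a fatty acid receptor, lay at 1408 ± 51.8 TPM. Lep, the satiety hormone leptin, was the lowest member by far at 16.7, 15.5, 10.2 and 9.78 TPM. Its values in libraries 1 and 2 were above those in libraries 3 and 4.

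**Figure D2:**
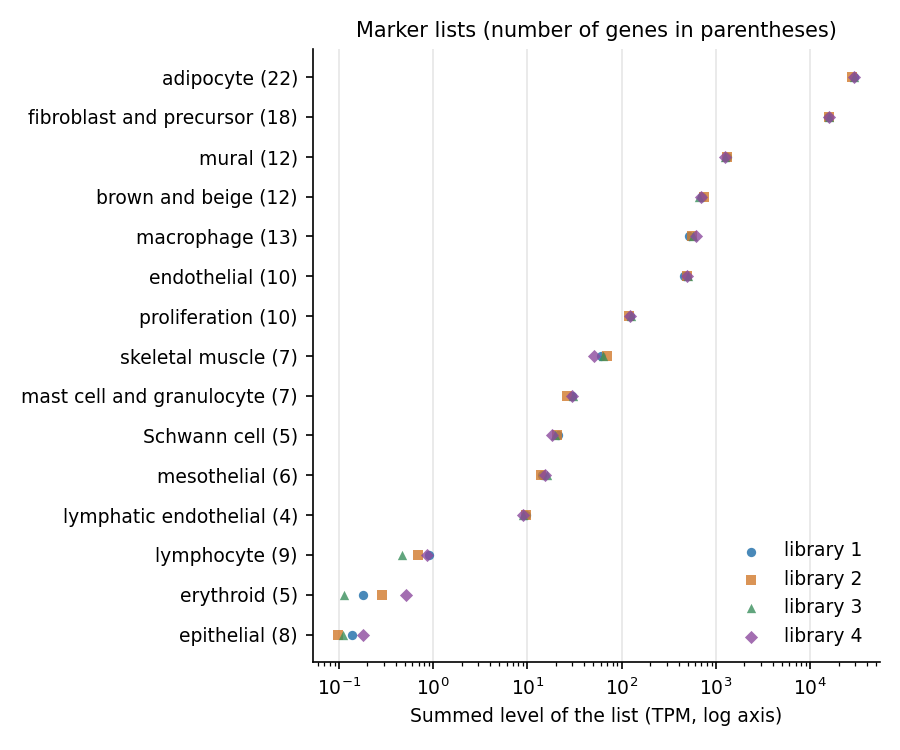
Summed TPM of the marker lists in each of the 4 libraries, on a log axis, with the number of genes per list in parentheses. Adipocyte and fibroblast lists lie far to the right, at 27980.1 to 29031 and 15449 to 15919 TPM, and lymphocyte, erythroid and epithelial lists lie below 1 TPM.

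Among droplet proteins and fatty acid carriers, the adipocyte members Plin1, Cidec and Fabp4 had the highest TPM of their families. Among perilipins, the order was Plin1 (1246 ± 19.6 TPM), Plin2 (1060.4 ± 77.1 TPM), Plin4 (837 ± 9.30 TPM), Plin5 (78.1 ± 1.59 TPM) and Plin3 (57.9 ± 1.23 TPM), with no overlap between neighbours over the libraries. Cidec made up 97.5% of the summed TPM of the CIDE family, whose members Cidea and Cideb lay at 11.3 ± 1.25 and 0.51 ± 0.271 TPM. Fabp4 lay at 4165, 3869, 4127 and 4168 TPM and made up 85.7% of its family. Fabp5 followed at 666 ± 30.4 TPM, while Fabp1, Fabp2 and Fabp6, the liver and intestinal forms, had no count. The Fabp4 value depends on the length used. The deposited length is 4489 bases, 896 bases is the longest basic transcript in GENCODE M21, and with that length Fabp4 would be the highest of the adipocyte list.

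**Figure D3:**
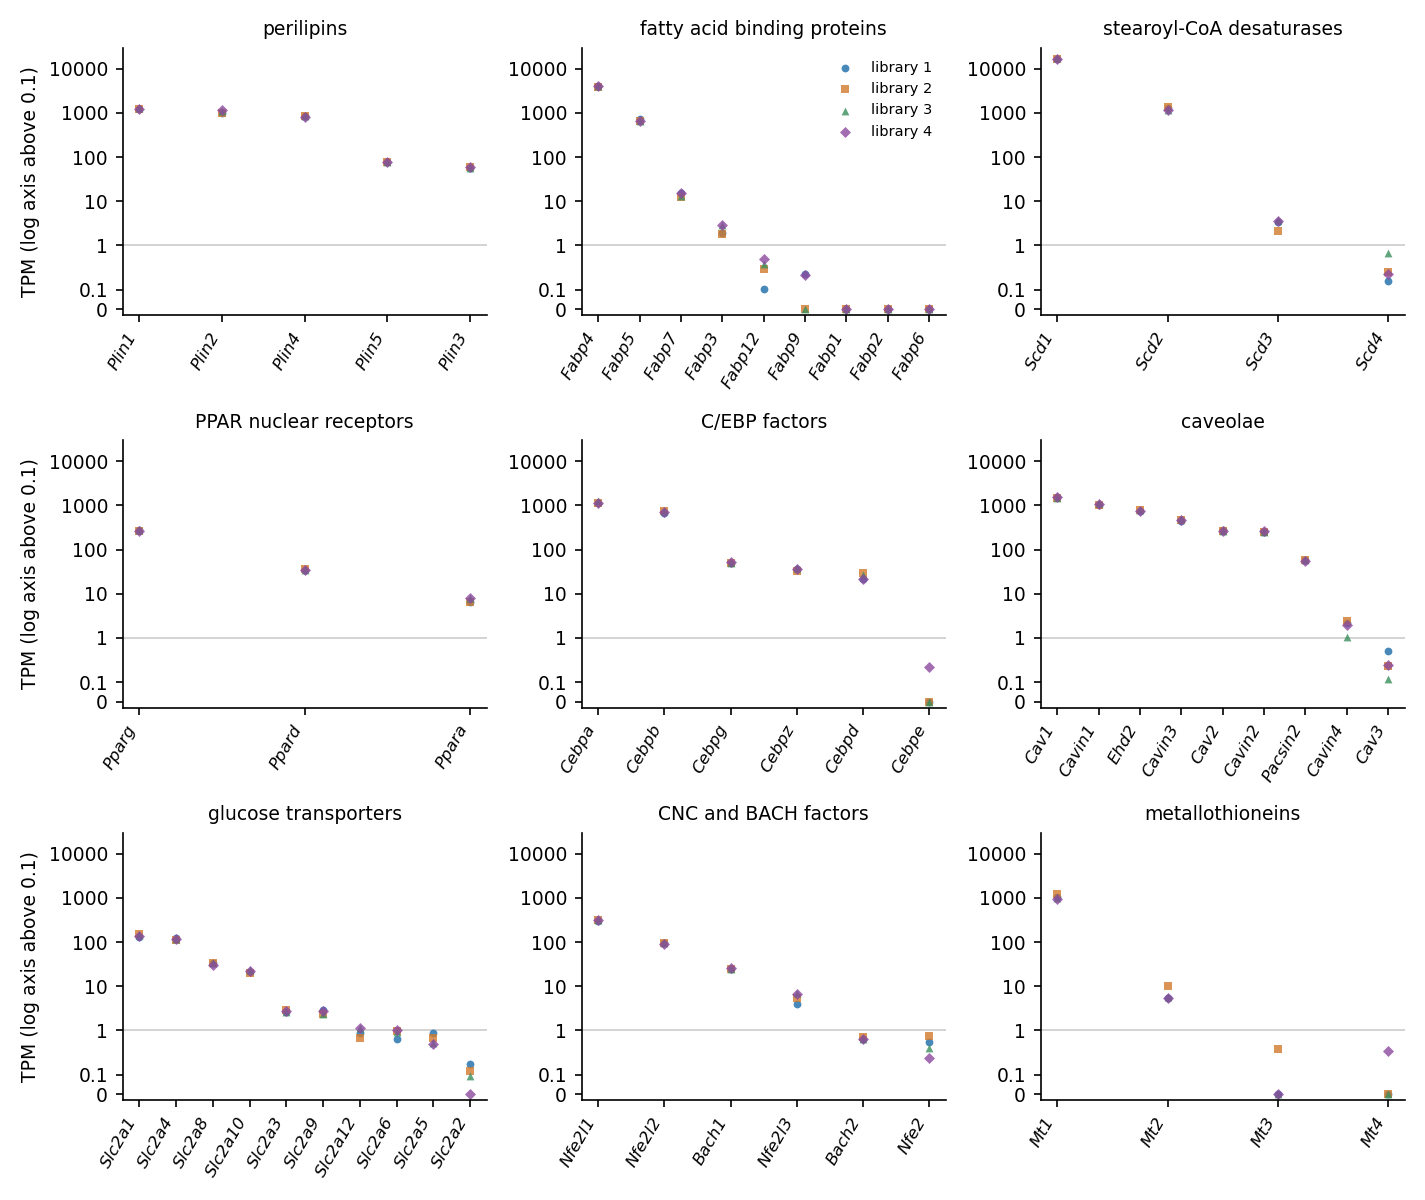
TPM of every member of 9 gene families in the 4 libraries, on an axis that is logarithmic above 0.1 and linear below. The grey line marks 1 TPM. In several of these families 1 member stands well above the others, such as Scd1, Fabp4, Pparg, Nfe2l1 and Mt1.

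Genes of fatty acid synthesis were high. The 15 genes of the list were all detected and summed to 23291 ± 649 TPM, of which Scd1 made up 72.7%. Fasn, the fatty acid synthase, lay at 1435 ± 149 TPM and Acly, which makes its cytosolic acetyl-CoA, at 772 ± 55.1 TPM. Me1 and Pcx, which supply reducing power and oxaloacetate, lay at 968 ± 52.2 and 941 ± 31.4 TPM. Acaca, the cytosolic acetyl-CoA carboxylase, lay lower at 131 ± 9.78 TPM, above its mitochondrial relative Acacb at 66.4 ± 1.97 TPM. Among desaturases, Scd2 lay at 1259 ± 105 TPM and Scd3 and Scd4 at 3.25 ± 0.748 and 0.328 ± 0.241 TPM. Among elongases, Elovl5 (147 ± 4.99 TPM) and Elovl1 (112 ± 0.3 TPM) were above Elovl6 (55.0 ± 4.05 TPM), which lengthens palmitate to stearate. Mlxipl, the carbohydrate-sensing factor ChREBP, lay at 88.4 ± 3.03 TPM.

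Triglyceride assembly enzymes were present at every step. Gpam, the mitochondrial enzyme of the first acylation, lay at 516 ± 23.0 TPM, above Gpat4 (81.4 ± 5.69 TPM) and Gpat3 (41.4 ± 3.27 TPM). Agpat2, the second acyltransferase and a lipodystrophy gene in humans, lay at 859 ± 34.9 TPM, while Agpat1 and Agpat3 lay at 124 ± 1.77 and 121 ± 2.52 TPM. Lpin1, the phosphatase of the third step, lay at 53.7 ± 2.65 TPM. Of the final enzymes, Dgat2 lay at 231 ± 12.0 and Dgat1 at 169 ± 6.77 TPM. Gpd1, which makes the glycerol backbone, lay at 826 ± 37.7 TPM. Acsl1, which activates long-chain fatty acids, made up 69.5% of its family at 338 ± 20.5 TPM.

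Genes of lipolysis were all detected, 9 of 9 in the list, with a median of 361 TPM. Pnpla2, which encodes ATGL and removes the first fatty acid, lay at 1676, 1649, 1815 and 1771 TPM. G0s2, its protein inhibitor, lay at 1624, 1782, 1595 and 1504 TPM. The ranges of enzyme and inhibitor overlapped on the deposited lengths, while GENCODE M21 lengths gave 1422 ± 62.4 TPM for Pnpla2 and 1163 ± 84.7 TPM for G0s2. Lipe, the hormone-sensitive lipase, lay at 385 ± 28.3 TPM and Mgll, which acts last, at 314 ± 3.10 TPM. Abhd5, the activator of ATGL, lay at 91.9 ± 1.63 TPM, and Aqp7, the glycerol channel, at 63.6 ± 3.68 TPM. Pnpla3, an ATGL relative, lay at 361 ± 30.4 TPM.

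Receptors for the signals that steer this balance differed widely. Adrb3, the β3-adrenergic receptor of rodent fat, lay at 240.4, 244, 263 and 254 TPM and made up 82.8% of the summed TPM of 9 adrenergic receptors. Adra1d and Adra1a lay at 30.4 ± 3.32 and 10.7 ± 0.291 TPM, and Adrb1 and the antilipolytic Adra2a at 5.73 ± 0.555 and 0.846 ± 0.0686 TPM. The insulin receptor gene Insr lay at 40.1 ± 1.36 TPM, with its substrates Irs1 at 39.4 ± 1.49 and Irs2 at 30.2 ± 2.62 TPM. Insr and Irs1 overlapped on the deposited lengths, but with GENCODE M21 lengths they lay apart at 42.1 ± 1.38 and 28.2 ± 1.09 TPM. Igf1r, the IGF1 receptor, lay at 9.01 ± 0.348 TPM.

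Of 10 glucose transporter genes, 2 stood above the rest. Slc2a1, the ubiquitous transporter GLUT1, lay at 142 ± 8.85 TPM and Slc2a4, the insulin-regulated GLUT4, at 118 ± 4.73 TPM. Slc2a1 was higher in each library on the deposited lengths, but with GENCODE M21 transcript lengths the order was reversed, at 109 ± 6.91 and 117 ± 4.60 TPM. Hexokinases showed the same dependence: Hk2 lay at 73.6 ± 5.15 and Hk1 at 59.2 ± 3.56 TPM, and at 57.0 ± 4.08 and 84.5 ± 5.14 TPM with the other lengths. Of 17 glycolytic genes all were detected, led by Aldoa (3734 ± 65.8 TPM), Ldha (2204 ± 20.6 TPM), Pgk1 (1722 ± 50.6 TPM) and Pkm (1644 ± 37.5 TPM). Ldha, which makes lactate from pyruvate, exceeded Ldhb at 276 ± 5.64 TPM.

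Genes for secreted factors ranged widely. The 22 genes of the adipokine list summed to 20369.7 ± 382 TPM, with 14 at 100 TPM or more. Rbp4, the retinol carrier, lay at 851 ± 23.6 TPM and Retn, resistin, at 371 ± 11.5 TPM. Angptl4, an inhibitor of lipoprotein lipase, lay at 536, 545, 667 and 686 TPM, with libraries 3 and 4 above libraries 1 and 2. Agt, the precursor of angiotensin, lay at 345 ± 13.7 TPM and Rarres2, chemerin, at 213 ± 6.47 TPM. At the other end, Fgf21 lay at 4.78 ± 0.905 TPM, Serpina12, vaspin, at 0.366 ± 0.0818 TPM, and Itln1 had no count.

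The 2 transcription factors with the highest TPM, Cebpa and Cebpb, are both known from adipogenesis. Of 1525 genes to which the deposited table gives a transcription factor family, 1006 were detected and together made up 26399 ± 368 TPM. Cebpa was first at 1148, 1119, 1259 and 1161 TPM and Cebpb, which acts earlier in differentiation, second at 716 ± 41.7 TPM. Cebpd, its early partner, lay at 24.7 ± 3.91 TPM. The 22 genes of the list of adipogenic factors had a median of 44.4 TPM, and 5 of them reached 100 TPM. After Ybx1 and Id3, the next were Atf5 (375 ± 22.3 TPM), Irf7 (368 ± 13.5 TPM), Srebf1 (358 ± 21.1 TPM) and Nfe2l1 (313 ± 4.28 TPM), and Pparg ranked 13. The bZIP family, to which the C/EBP, ATF and Nfe2l1 products belong, summed to 5202 ± 157 TPM over 53 genes. The 609 genes of the C2H2 zinc finger family summed to 5372 ± 35.9 TPM.

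Factors known from precursors ranged widely. Klf5, an early factor of differentiation, lay at 0.592 ± 0.0934 TPM, Gata2 and Gata3, which hold precursors back, at 4.32 ± 0.174 and 0.286 ± 0.0647 TPM, and Zfp423, a factor of committed precursors, at 22.6 ± 0.639 TPM. Pparg made up 86.4% of its family, against 35.3 ± 1.14 TPM for Ppard and 7.29 ± 0.902 TPM for Ppara, the liver form. Its partner receptors Rxra and Rxrb lay at 97.2 ± 4.21 and 56.4 ± 3.74 TPM. Nr3c1, the glucocorticoid receptor, lay at 114 ± 3.84 TPM.

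Within the CNC family of Nfe2l1, the order was Nfe2l1, then Nfe2l2 (93.5 ± 0.758 TPM), the factor of the antioxidant response, Bach1 (24.4 ± 0.635 TPM), its repressor, and Nfe2l3 (5.72 ± 1.33 TPM). Bach2 and the blood cell factor Nfe2 lay at 0.655 ± 0.0394 and 0.476 ± 0.21 TPM. Nfe2l1 made up 71.5% of the summed TPM of the family. Among 16 ATF and CREB factors, Atf3 ranked 9, below Atf5, Atf4 (299 ± 4.08 TPM) and Creb3l1 (295 ± 15.2 TPM). Ddit3, the CHOP factor that stress induces along with Atf3, lay at 63.1 ± 3.98 TPM. Atf4 and Creb3l1 overlapped on the deposited lengths, but with GENCODE M21 lengths they lay apart at 292 ± 3.59 and 211 ± 10.8 TPM.

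Proteasome genes, the targets for which Nfe2l1 is known, were expressed throughout. All 14 core particle genes were detected and summed to 3048, 3022, 3004 and 3033 TPM. They lay between Psma3 at 88.1 ± 1.09 TPM and Psmb5, the chymotrypsin-like subunit, at 481 ± 13.3 TPM. All 18 regulatory particle genes were detected too, between Psmd11 at 62.5 ± 1.71 TPM and Psmd2 at 292 ± 4.33 TPM, and summed to 2699, 2726, 2739 and 2767 TPM. The libraries differed little in either sum. The inducible subunits of the immunoproteasome, Psmb8, Psmb9 and Psmb10, lay at 85.0 ± 1.96, 54.3 ± 1.97 and 96.6 ± 1.54 TPM. Their constitutive counterparts Psmb5 and Psmb6 (184 ± 2.65 TPM) lay above Psmb8 and Psmb9 in each library, while Psmb7 lay at 98.2 ± 1.35 TPM.

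Genes of sterol synthesis lay well below those of fatty acid synthesis. All 26 listed genes were detected with a median of 56.7 TPM, against 228 TPM for fatty acid synthesis, and 6 reached 100 TPM. Insig1, which holds SREBP in the endoplasmic reticulum when sterols suffice, led at 536 ± 16.6 TPM. Hmgcs1, an early enzyme of the pathway, lay at 283 ± 5.72 TPM and Sqle, the squalene epoxidase, at 84.8 ± 4.67 TPM. Sc5d and Cyp51, enzymes of its late steps, lay at 169 ± 7.60 and 129.5 ± 2.79 TPM. Srebf2, the factor that drives these genes, lay at 86.1 ± 2.01 TPM, below the lipogenic Srebf1, which made up 80.6% of the pair. Fdps lay at 5.76, 5.25, 4.57 and 4.39 TPM. A stretch of its transcript is near-identical to 3 other annotated genes, and the part of this in its low value was not tested.

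Genes of sterol export and storage were also present before any loading. Both LXR genes were detected, Nr1h2 at 96.2 ± 2.03 TPM and Nr1h3 at 73.8 ± 2.95 TPM. Their targets Abca1 and Abcg1, which move cholesterol to lipoproteins, lay at 151 ± 4.20 and 59.1 ± 3.64 TPM. Apoe lay at 951, 986, 1027 and 994 TPM and Npc2, which takes cholesterol out of lysosomes, at 981 ± 11.7 TPM. Their ranges overlapped on the deposited lengths, and with GENCODE M21 lengths Npc2 would lie above Apoe, at 1157 ± 12.9 and 1075 ± 32.8 TPM. The partner of Npc2, Npc1, lay at 20.6 ± 0.874 TPM. Soat1, which esterifies cholesterol, lay at 24.6 ± 0.971 TPM and Soat2 at 3.42 ± 0.732 TPM. Scarb1, the HDL receptor, lay at 103 ± 2.71 TPM.

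Genes of caveolae, the flask-shaped pits that cover much of an adipocyte surface and hold cholesterol, were high. Cav1, their main scaffold, lay at 1521 ± 21.6 TPM, Cavin1 at 1069 ± 43.1 TPM and Ehd2, which anchors the necks, at 767 ± 11.2 TPM. Cav2 and Cavin2 lay at 266 ± 6.55 and 253 ± 8.86 TPM. The muscle forms lay at 1.90 ± 0.589 TPM for Cavin4 and at 9 counts in all for Cav3.

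Mitochondrial genes were prominent on the TPM scale. The mitochondrial chromosome encodes 13 messenger RNAs, which summed to 52908, 50598, 47775 and 49807 TPM, and library 1 was the highest and library 3 the lowest. They were unequal. mt-Co1 lay at 16409 ± 425 TPM and mt-Cytb at 8124 ± 275 TPM, whereas mt-Co2 lay at 571 ± 51.2 TPM, mt-Co3 at 180.1 ± 35.0 TPM, mt-Atp6 at 227 ± 64.2 TPM and mt-Atp8 at 12.7 ± 6.64 TPM. Their transcripts are cut from long shared precursors. mt-Atp6 overlaps 2 genes of the table. Near-identical stretches exist in 1 other gene for mt-Atp6 and for mt-Co3, and in 2 other genes for mt-Co2 and for mt-Co1, the highest. How reads shared between genes were counted is not given in the sources used here, and their part in these values was not tested.

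Nuclear genes for respiration and oxidation were detected nearly throughout. Of 85 protein-coding rows of the table that carry the name of a nuclear respiratory chain subunit, among them 2 rows of Atp5o and one that its description calls a pseudogene, 81 were detected, led by Cox6a1 (3181 ± 82.6 TPM), Cox8a (2429 ± 84.1 TPM) and Atp5b (2009.8 ± 8.92 TPM). All 17 genes of the tricarboxylic acid cycle list were detected, with a median of 384 TPM. Among 16 genes of fatty acid oxidation, also all detected, Acadl (605 ± 12.2 TPM) and Acaa2 (546 ± 9.87 TPM) led on the deposited lengths. With GENCODE M21 lengths Etfa, Hadhb and Echs1 would lie above them, at 500.0 ± 13.1, 479 ± 12.4 and 465 ± 5.63 TPM, against 453 ± 8.54 TPM for Acadl and 391 ± 7.12 TPM for Acaa2. The carnitine transferase Cpt1a lay at 39.6 ± 2.52 TPM and its muscle form Cpt1b at 0.547 ± 0.115 TPM. Pdk4, which blocks pyruvate entry into the cycle, lay at 223, 189.6, 301 and 326 TPM and was higher in libraries 3 and 4 than in libraries 1 and 2.

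Markers of brown and beige fat ranged widely. Ucp1, the uncoupling protein, lay at 11.1, 9.75, 11.4 and 11.7 TPM, Cidea at 11.3 ± 1.25 TPM, Ppargc1a at 6.03 ± 0.233 TPM, Dio2 at 9.41 ± 0.412 TPM and Prdm16 at 12.6 ± 0.483 TPM. Cox7a1 and Cox8b, respiratory subunits of brown fat and muscle, lay at 355 ± 14.5 and 235 ± 21.7 TPM and made up most of the list's 700.5 ± 36.7 TPM. Ebf2, a factor of brown and beige precursors, and Otop1, a proton channel, lay at 30.1 ± 0.725 and 23.7 ± 1.58 TPM, the next highest of the list. Zic1, a marker of classical brown fat, drew 5 counts over all 4 libraries.

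Lists of chaperones, the integrated stress response and antioxidant defence were each detected in full. The 22 chaperone genes were led by Hsp90ab1 (1450.5 ± 22.6 TPM), Calr (1045 ± 29.8 TPM) and Hspa5 (952 ± 39.2 TPM). Hspa1b and Hspa1a, the inducible HSP70 genes, lay at 27.4 ± 0.442 and 6.20 ± 0.783 TPM and share near-identical stretches, so that their values are uncertain. Of the 20 genes of the integrated stress response, Ddit4 led at 337 ± 33.9 TPM, and Asns, the asparagine synthetase, lay at 134 ± 3.00 TPM. Trib3 and Chac1, which mark an active response, lay at 86.9 ± 4.32 and 29.3 ± 1.45 TPM. Hmox1, which breaks down haem, lay at 896 ± 94.7 TPM, the ferritin subunit Fth1 at 1649 ± 10.4 TPM and Nqo1 at 39.9 ± 2.72 TPM. Cat, the peroxisomal catalase, lay at 851 ± 43.8 TPM and Gpx3, the secreted glutathione peroxidase, at 2172 ± 41.9 TPM. Mt1 lay at 1024, 1209, 1019 and 961 TPM with library 2 highest and made up 99.4% of the metallothionein family, while Mt2 lay at 6.70 ± 2.34 TPM. Mt2 has a near-identical stretch in 1 other gene, whose part in this was not tested.

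Lysosomal proteases were high. Ctsd lay at 2277 ± 28.3 TPM, Ctsb at 1869.7 ± 14.9 TPM and the membrane protein Lamp1 at 936 ± 7.81 TPM. Sqstm1, the autophagy receptor p62, lay at 811 ± 55.2 TPM, and Lipa, which frees cholesterol from lysosomal esters, at 89.4 ± 5.28 TPM. Of 86 protein-coding genes that carry a cytosolic ribosomal protein name, 83 were detected with a summed level of 39763 ± 348 TPM. Among the 86 are Rps19bp1, whose product binds a ribosomal protein, and retrogenes such as Rps27rt. Many ribosomal protein genes are known to have processed copies in the genome, and how reads shared with those were counted is not known here.

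Fibroblast and matrix genes were abundant too. The 18 genes of the fibroblast and precursor list summed to 15449, 15663, 15919 and 15614 TPM, below the adipocyte list in each library. Collagen genes made up most of it, and markers of the precursor surface were mixed. Col1a1 lay at 5108, 5259, 5529 and 5152 TPM. Ly6a, the surface protein SCA1, lay at 2877 ± 122 TPM, Thy1 at 358 ± 3.24 TPM and Pdgfra, the growth factor receptor of precursors, at 107 ± 2.81 TPM. Cd34 lay at 28.9 ± 0.714 TPM and Dlk1, a brake on differentiation, at 7.05 ± 0.796 TPM. Dpp4 and Pi16, which mark the most immature interstitial progenitors, lay at 0.137 ± 0.0352 and 0.238 ± 0.114 TPM and were the only list members not detected. Adipocytes express several of these genes themselves, so the list does not measure a share of cells.

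Of 24 collagen genes, 19 were detected and 14 reached 100 TPM. After Col1a1 came Col6a1 (3391 ± 65.6 TPM), Col4a1 (2975 ± 103 TPM), Col3a1 (2616 ± 56.6 TPM) and Col4a2 (2216 ± 87.2 TPM). Col6a1, Col6a2 (1322 ± 30.9 TPM) and Col6a3 (1041 ± 29.0 TPM) encode the chains of collagen VI, and Col4a1 and Col4a2 those of the basement membrane around adipocytes. Col4a3, Col4a4 and Col4a6, chains of other basement membranes, lay at 0.0876 ± 0.0297, 0.166 ± 0.0747 and 0.078 ± 0.0214 TPM. Sparc, a collagen-binding protein of the matrix, lay at 5985 ± 168 TPM, Timp1, a protease inhibitor, at 1986 ± 60.8 TPM and Lox, which crosslinks collagen, at 1349 ± 29.4 TPM. Among IGF binding proteins Igfbp7 (2069.7 ± 64.6 TPM) and Igfbp6 (1075 ± 34.7 TPM) were highest.

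Markers of other cell types of adipose tissue were looked up in lists for each. All 13 macrophage genes were detected. They summed to 523, 559, 565 and 612 TPM, led by Lyz2 (243 ± 16.6 TPM), Cd68 (93.8 ± 6.98 TPM) and C1qb (64.0 ± 5.84 TPM). Adgre1, which encodes F4/80, lay at 13.0 ± 1.55 TPM, and Ptprc, the CD45 gene of all leukocytes, at 1.01, 1.34, 1.06 and 1.35 TPM. Endothelial genes were present too and summed to 459.6, 493, 502 and 490.4 TPM. Cdh5, the vascular cadherin, lay at 164 ± 6.44 TPM, Pecam1 at 90.8 ± 4.02 TPM, Kdr, a VEGF receptor, at 71.6 ± 3.06 TPM and Vwf at 3.40 ± 0.198 TPM.

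The 12 mural genes, of pericytes and smooth muscle, were all detected and summed to 1269 ± 30.1 TPM. Acta2, the smooth muscle actin that activated fibroblasts also make, lay at 725 ± 34.5 TPM and Pdgfrb at 241 ± 9.69 TPM. Mcam lay at 180 ± 4.88 TPM, Notch3 at 52.6 ± 3.22 TPM, Cspg4 at 18.8 ± 0.986 TPM and Rgs5 at 15.7 ± 1.03 TPM. Abcc9 and Kcnj8 lay at 12.7 ± 0.521 and 6.75 ± 0.989 TPM. Lowest were Myh11, the smooth muscle myosin, at 5.31 ± 0.278 TPM, Des at 5.12 ± 0.485 TPM, Tagln at 3.98 ± 0.282 TPM and Cnn1 at 2.10 ± 0.331 TPM. Mast cell proteases Cma1 and Cpa3 lay at 10.9 ± 1.14 and 5.55 ± 1.06 TPM. Of the skeletal muscle list only Acta1 was detected, at 59.7, 67.8, 62.5 and 49.6 TPM, and Ckm, the muscle creatine kinase, drew 2 counts in all. The proliferation list summed to 122 ± 2.99 TPM, with Mki67 at 12.4 ± 0.245 TPM.

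Genes of lymphocytes, epithelium and red cells were near or at 0. None of the 9 lymphocyte genes was detected, and Cd3g, Ms4a1 and Ncr1 had no count. None of the 8 epithelial genes was detected, and Krt8, Krt18, Epcam and Cdh1 had no count in 102335200 counts. The haemoglobin genes Hbb-bs, Hbb-bt, Hba-a1 and Hba-a2 had no count either. Of the 6 genes of mesothelium, the lining of visceral fat, Msln drew 2 and Upk3b 3 counts over all 4 libraries, while Krt19 lay at 11.9 ± 1.25 TPM and Lrrn4 at 2.75 ± 0.635 TPM. All 5 genes of the Schwann cell list were detected, led by Mbp, a protein of myelin, at 7.90 ± 0.459 TPM, S100b at 5.77, 5.15, 3.83 and 4.55 TPM and the factor Sox10 at 3.64 ± 0.278 TPM. The part of macrophages, endothelial or other cells in the levels of genes that these cells share with adipocytes was not tested.

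Hox genes record the position of a cell along the body axis. In the Hox C cluster, Hoxc10 (76.6 ± 2.96 TPM), Hoxc6 (71.5 ± 1.79 TPM), Hoxc8 (47.5 ± 1.24 TPM) and Hoxc9 (47.0 ± 0.569 TPM) led. With GENCODE M21 lengths Hoxc6 would be above Hoxc10, at 77.9 ± 2.01 and 54.8 ± 2.11 TPM, and Hoxc8 and Hoxc9, which overlapped on the deposited lengths, would lie apart at 51.5 ± 1.32 and 34.4 ± 0.387 TPM. Hoxa10 (29.1 ± 0.284 TPM) and Hoxb7 (19.1 ± 0.987 TPM) led clusters A and B on the deposited lengths, while with the other lengths Hoxa9 would be above Hoxa10, at 29.3 ± 0.939 and 26.5 ± 0.29 TPM. Cluster D summed to 24.0 ± 1.66 TPM with Hoxd11, Hoxd12 and Hoxd13 at no count. Among depot factors, Tbx15 and Shox2, known from subcutaneous fat of mice, lay at 53.2 ± 1.89 and 39.5 ± 1.62 TPM. Among those known from visceral fat, Wt1 lay at 0.251 ± 0.102 TPM, and Tcf21 and Bnc1 drew 2 and 4 counts in all. The other members of the list lay in between and were not assigned to a depot here. They were En1 (16.98 ± 1.74 TPM), Nr2f1 (11.58 ± 0.461 TPM), Irx3 (10.03 ± 1.42 TPM), Irx5 (8.02 ± 0.466 TPM) and Tbx5 (2.85 ± 0.212 TPM). The list as a whole was therefore not read as a depot pattern. Genes of the Y chromosome were expressed, Ddx3y at 76.2, 76.9, 74.9 and 79.0 TPM and Eif2s3y at 52.1, 53.5, 46.7 and 50.4 TPM. Xist, which is transcribed from the silent X chromosome of females, drew 6, 2, 7 and 3 counts.

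Imprinted genes, which are expressed from 1 parental copy, were mostly detected, 21 of 23. Nnat (143 ± 7.58 TPM) and Mest (106 ± 1.91 TPM), which rises as fat cells enlarge, led, while Igf2 lay at 0.0852 ± 0.0323 TPM and H19, its neighbour, at 30.3 ± 1.78 TPM. Of long non-coding RNAs, Malat1 lay at 457, 377, 245 and 353 TPM and Neat1 at 161, 138, 114 and 128 TPM, and library 3 had the lowest value of both. Rmrp, Terc and Rpph1, whose products carry no poly(A) tail, had no count. Rn7sk, which also lacks a tail, ranked 9 of 15 in the list, of which 10 averaged at least 1 TPM.

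Inflammatory genes were uneven before any loading. Csf1, the growth factor of macrophages, was the highest of 21 cytokine genes at 686 ± 11.0 TPM. The monocyte chemokines Ccl7 and Ccl2 lay at 184, 262, 174 and 222 TPM and at 119, 247, 137 and 173 TPM, both highest in library 2. Cxcl12 lay at 204 ± 10.8 TPM and Cxcl14 at 168 ± 18.5 TPM. Il6 lay at 7.30, 12.0, 7.53 and 9.43 TPM, while Tnf lay at 0.887 ± 0.168 TPM. Over all 4 libraries Il1b drew 1 count and Il10 1. Acute-phase and complement genes summed to 14340.0 ± 467 TPM, of which Hp made up 43.7%. C3, the central complement component, lay at 1378 ± 54.4 TPM, and Saa3, the serum amyloid of fat and macrophages, at 75.6 ± 4.69 TPM.

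Interferon-induced genes were all detected and summed to 4066, 4041, 4017 and 4579 TPM, with library 4 above the others. Bst2, which tethers virus particles, lay at 1846 ± 57.5 TPM and Isg15, a ubiquitin-like modifier, at 548 ± 46.3 TPM. Ifit1 lay at 196, 198, 189 and 289 TPM, Ifit3 at 337, 325, 323 and 448 TPM and Rsad2 at 105, 108, 105 and 137 TPM. Library 4 was the highest of the 4 for each of these 5 genes. The siRNA was present in all 4 cultures, and its part in these levels cannot be told apart from the basal state.

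The 19 immediate early genes had a median of 33.2 TPM, and 5 of them reached 100 TPM. The 15 clock genes had a median of 18.6 TPM, and none reached 100 TPM. The median detected protein-coding gene had 19.8 TPM. Junb lay at 131 ± 6.93 TPM and Jun at 131 ± 13.1 TPM, and Fos and Egr1, which appear within minutes of a stimulus, lay at 11.8 ± 1.15 and 26.3 ± 0.315 TPM. Nr1d1, the clock repressor REV-ERBα, lay at 39.6, 36.2, 44.9 and 48.2 TPM, and its opponent Arntl, listed under that symbol in the table, at 12.1 ± 0.72 TPM.

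The libraries resembled each other closely but were not copies. In each of the 6 pairs, counts differed by more than counting error, with a chi-square per degree of freedom of 2.80 to 6.73. The biological coefficient of variation (BCV), edgeR's estimate of the spread beyond counting error, had a median of 4.91% over 14718 genes, and 3.25% to 11.8% spanned its 5th to 95th percentile. For genes with a mean of 10 to 100 counts, the median coefficient of variation (CV) of depth-scaled counts was 19.8%, against 18.6% from counting alone. For genes of 100 to 1000 counts it was 6.16% against 4.99%, and for genes of 1000 to 10000 counts 3.25% against 2.25%. Above 10000 counts it was 2.48% against 0.786%. The counting values come from the inverse square root of the mean count. The median CV over 4 libraries falls somewhat below the true CV, so the spread beyond counting is understated. Below 100 counts, counting error made up most of the spread.

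**Figure D4:**
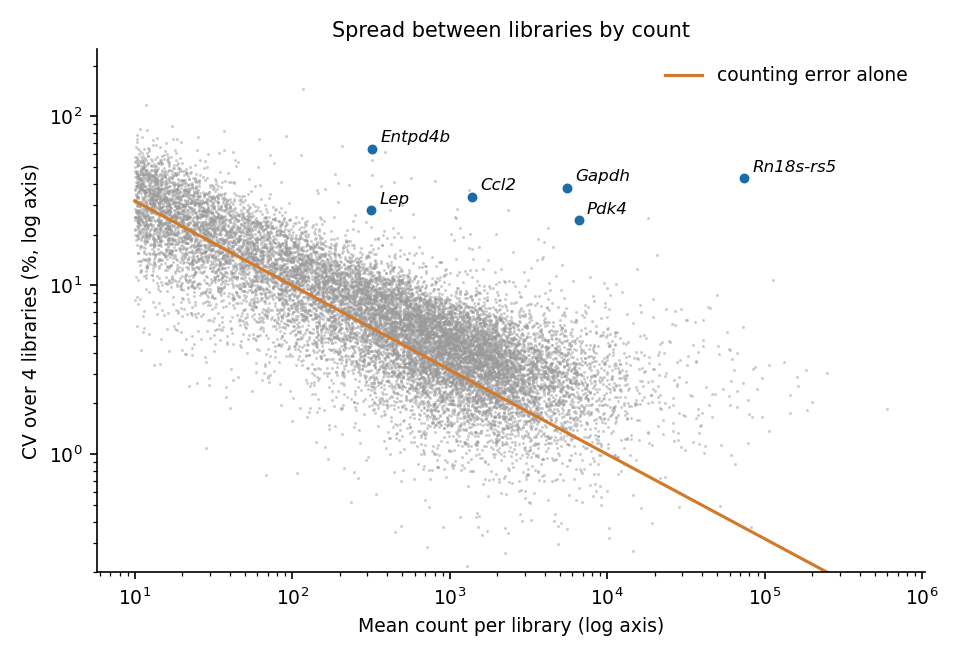
CV of depth-scaled counts over the 4 libraries against the mean count of a gene, both on log axes, 1 grey point per gene with a mean of at least 10 counts. The orange line is the CV from counting error alone, and the blue points Gapdh, Pdk4, Rn18s-rs5, Ccl2, Lep and Entpd4b lie far above it.

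The least variable of protein-coding genes with at least 5 TPM included Xiap, which inhibits caspases, at 116, 117, 117 and 117 CPM, and Hsd17b7, an enzyme of sterol synthesis, at 98.1, 97.6, 97.6 and 98.1 CPM. Twf1, Zfr and Tm9sf4 completed the 5 lowest BCVs. The lowest BCV of all was 3.12%, near the 5th percentile of 3.25%, so the order at this end carries little information. The values of Xiap and Hsd17b7 spread less than counting error. Counting alone gives a median CV of 2.25% for genes of 1000 to 10000 counts. Among genes often used as reference, Hprt lay at 91.1 ± 2.18 CPM and Actb at 1747 ± 131 CPM, but Gapdh at 257, 309.9, 179 and 123 CPM. Gapdh was highest in library 2 and lowest in library 4, 2.53 times apart. Its transcript shares a near-identical stretch with 42 other annotated genes, and its level of 186 TPM was far below that of its neighbours in glycolysis, such as Tpi1 at 1333 TPM. The part of shared reads in this was not tested.

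The 20 protein-coding genes with the highest BCV among those of at least 5 TPM were mostly genes with close copies. A near-identical stretch (at least 200 bases at 95% identity or more) in another gene was found for 14 of them (70%), against 2181 of 10178 (21.4%) of all such genes. Among the 200 with the highest BCV, it was found for 79 (39.5%). Entpd4b was the extreme, at 20.1, 14.3, 1.06 and 14.95 CPM, with library 3 far below the rest. Lsm5 was also lowest in library 3, at 4.08, 3.49, 0.646 and 3.68 CPM, and Sumo2 lay at 15.3, 6.31, 21.1 and 7.55 CPM with libraries 1 and 3 above 2 and 4. Rps27rt, a ribosomal protein retrogene, lay at 15.5, 47.4, 31.6 and 31.1 CPM and was lowest in library 1.

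The other 6, Pdk4, Lep, Ccl2, Cxcl5, Cxcl10 and Mx2, had no such stretch. The chemokines Ccl2 and Cxcl5 were highest in library 2, Cxcl5 at 4.91, 12.2, 6.16 and 5.81 CPM and Ccl2 at 38.6, 79.9, 43.9 and 55.4 CPM. The interferon-induced genes Cxcl10, Mx1 and Mx2 were highest in library 4, Cxcl10 at 33.4, 41.9, 36.5 and 57.3 CPM and Mx2 at 22.9, 17.8, 19.2 and 31.1 CPM. Pdk4 and Lep split the libraries in pairs and in opposite ways. Pdk4 was lower in libraries 1 and 2, at 222, 189, 297 and 322 CPM, and Lep higher there, at 15.9, 14.8, 9.58 and 9.22 CPM. No library held most of the extremes: of the 200 most variable genes, library 1 was highest in 46, library 2 in 61, library 3 in 35 and library 4 in 58.

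**Figure D5:**
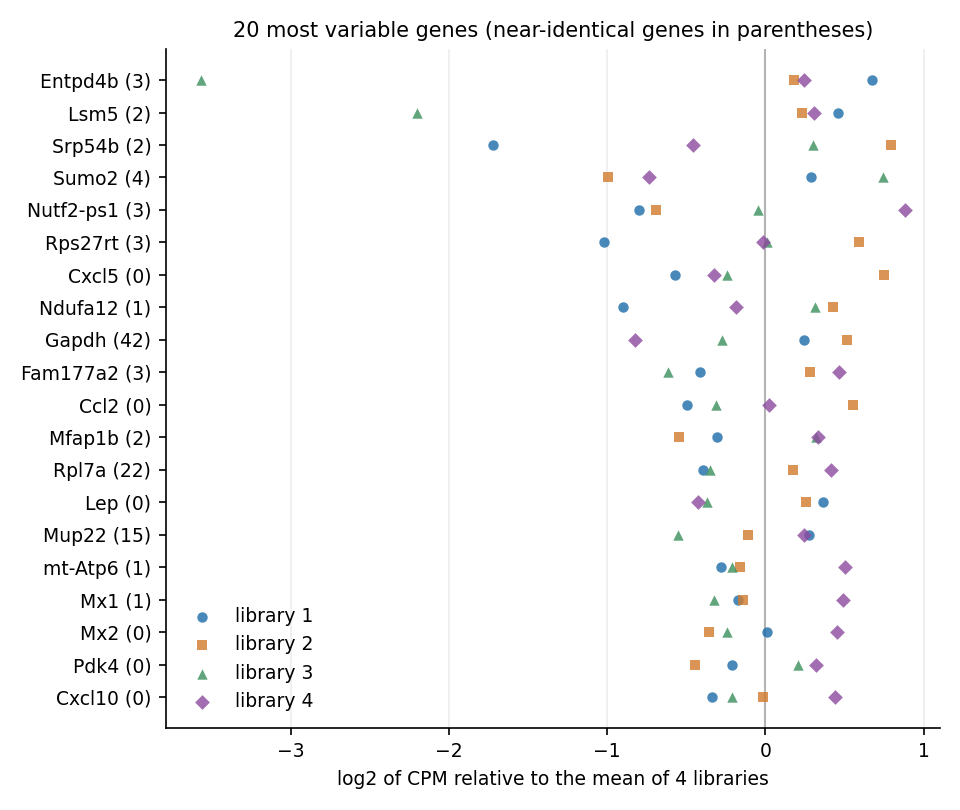
CPM of the 20 most variable protein-coding genes in each library, as log2 of the value over the mean of the 4 libraries, with the number of near-identical genes in parentheses. Entpd4b, Lsm5 and Srp54b spread most, and the libraries that lie high or low differ from gene to gene.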

How the data were processed

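RNA was sequenced from poly(A)-selected libraries. The authors deposited a table of raw counts per gene with gene length, biotype and transcription factor family, and its counts were used as deposited. Per the submitters' processing notes, the tools were fastp, HISAT2 2.0.5 and featureCounts 1.5.0-p3 with GRCm39; strandedness and the treatment of multi-mapping reads are not given in the sources used here. Of the sample columns, 28 of other groups were not used.

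TPM used the deposited lengths. CPM used TMM-scaled library sizes (edgeR 4.0.16, R 4.3.3), with BCV from an intercept-only fit to 14718 genes kept by filterByExpr and tested on simulated data. DESeq2 1.42.0 served as an alternative, and Python 3.11.15 (pandas 2.3.3) computed the rest. Near-identical genes were found by aligning GENCODE M21 transcripts with minimap2 2.31, for 14559 of those genes. No test between groups was made, since 1 group is described; the chi-square of library pairs and Dixon's ratio describe the spread.

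The text names the 4 markers, Nfe2l1 and Atf3, the 25 protein-coding nuclear and 5 non-coding genes with the highest mean TPM, up to 6 leading members and the defining members of each of 75 gene lists, families in order of TPM, and the 20 highest and 5 lowest BCVs among protein-coding genes of at least 5 TPM. Other list members were chosen for their role after their values were seen. A few list members are not reported here. Genes, members and lists were chosen with earlier results of these data known. Where a symbol named in a list occurs more than once, the row with the most counts was used; respiratory chain, ribosomal protein and histone genes were found by name among protein-coding rows, each row included.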

Additional observations from a re-analysis of the deposited data

Results flagged for a closer look

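In each value that the text gives, the 4 libraries were searched for 1 library far from the rest, by the ratio of its gap to the nearest neighbour over the whole range, against Dixon's critical value for 4 samples. This was so for 32 of 321 values (9.97%). Chance puts 1 library apart in about 1 in 20 groups of independent normal values. These values are not independent, since list sums contain their members, and 6 genes with counts in a single library stood apart by construction. The library apart was library 1 in 8, library 2 in 9, library 3 in 3 and library 4 in 12.

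Interferon-induced genes stood apart in library 4. Their list summed to 4579 TPM there and to 4017 to 4066 TPM in the others. Ifit1 lay at 289 TPM against 189 to 198 TPM, Ifit3 at 448 TPM against 323 to 337 TPM and Rsad2 at 137 TPM against 105 to 108 TPM. Library 4 also had mt-Atp6 at 323 TPM against 186 to 202 TPM. The iron list summed to 6783 TPM in library 1 against 7018 to 7039.9 TPM in the others, and H1f2 lay at 474 TPM in library 2 against 517 to 522 TPM. Smaller gaps in library 4 were those of ribosomal protein genes (40280.5 TPM summed, against 39528 to 39644), Cox6a1 (3058 TPM, against 3213 to 3229.9), Dio2 (8.79 TPM, against 9.57 to 9.67), Hoxa9 (22.6 TPM, against 23.9 to 24.1), Hprt (260.4 TPM, against 246 to 247) and Zfp423 (21.7 TPM, against 22.8 to 23.0).

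Library 2 had the lowest sum of adipocyte markers, 27980.1 TPM against 28961 to 29031 TPM. Fabp4 was lowest there too (3869 TPM, against 4127 to 4168), as was Plin5 (75.7 TPM, against 78.6 to 79.1). Mt2 was highest in library 2 (10.2 TPM, against 5.39 to 5.76), and so were Hk2 (81.2 TPM, against 70.3 to 71.9), Cideb (0.917 TPM, against 0.364 to 0.39) and Pi16 (0.407 TPM, against 0.16 to 0.195).

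In library 1, Creb3l1 was low at 272 TPM against 302 to 303 TPM, Cdh5 at 154 TPM against 166 to 168 TPM and Pdgfra at 102 TPM against about 108 TPM in each of the others. Fabp5 was high there at 712 TPM against 648 to 653 TPM, as was Psmb7 at 100.2 TPM against 97.3 to 97.7 TPM. In library 3, Psmd11 was high at 65.1 TPM against 61.4 to 61.9 TPM. The remaining genes had counts in a single library: Ckm (0.0997 TPM) and Tcf21 (0.124 TPM) in library 1, Upk3b (0.116 TPM) in library 2, Il1b (0.071 TPM) and Msln (0.0884 TPM) in library 3 and Il10 (0.105 TPM) in library 4. No cause was tested for any of these.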

How the results depend on the processing

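Leaving out each library in turn gave a summed TPM of the adipocyte list of 28639 to 28989 and a protein-coding share of 98.3% to 98.4% of counts. It gave 732 to 739.7 genes that held 50% of counts and a median BCV of 4.76% to 5.03%. Detected genes numbered 14908 to 14959, against 14811 with all libraries. That number can only stay or rise when a library is left out, so it is no check of the result. TPM over protein-coding genes outside the mitochondrial chromosome raised the adipocyte sum to 32464 TPM, and GENCODE M21 transcript lengths, chosen after seeing the data, raised it to 39983 TPM. Outside the mitochondrial chromosome, protein-coding genes took 98.6% of counts. Ranked by TPM, 483.5 genes held 50% of TPM. Any count in any library left 27589 genes. The median BCV was 2.22% with DESeq2's gene-wise dispersion, 13.9% with no filter on low counts and 2.92% by moments over genes of at least 1000 counts, an alternative added after seeing the data. Of 176 neighbouring pairs in family lists, 23 were in reversed order with GENCODE M21 lengths and 30 overlapped over the libraries. DESeq2 size factors and library totals moved no named gene's CPM by more than 0.528%. Lengths of RefSeq transcripts were not used here. No paired analysis was possible because 1 group is described. Genes under 100 counts are limited by counting error, and TPM by the length given to each gene.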

Other observations

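Some gene groups outside the account above were looked up from the same lists. Of 69 histone genes, 29 were detected by the limit on counts, against 12992 of 21970 protein-coding genes. On the TPM scale, 43 of the 69 averaged at least 1 TPM, against 12412 of the 21970. Their sum was 1509.8 ± 21.9 TPM, led by the linker histone H1f2 at 508 ± 23.3 TPM. Replication-dependent histone mRNAs carry no poly(A) tail, and the part of this in their levels was not tested. Of 8 glutathione peroxidase genes, Gpx3 led and Gpx4, which protects membranes from lipid peroxidation, followed at 1116 ± 33.0 TPM, while Gpx1 lay at 21.9 ± 2.69 TPM, with no near-identical gene found. The iron list summed to 6969 ± 124 TPM, most of it from the ferritin genes Ftl1 (3133 ± 56.5 TPM) and Fth1.

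Clock genes summed to 315 ± 6.49 TPM over 15 members. Lymphatic endothelial genes summed to 9.27 ± 0.401 TPM, of which Flt4 made up 93.5%. Prox1 and Lyve1 lay at 0.352 ± 0.0583 and 0.251 ± 0.227 TPM, and Ccl21a had no count. No cause was tested for any of these values.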
